A study of Mus musculus with 4 samples.

Results

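The Malat1-poor wells are a set of 108 single-cell wells from 2 plates of sorted microglia, in which the nuclear long noncoding RNA Malat1 was below a set limit. A well belonged to the set when it held at least 1000 endogenous counts (transcripts outside spike-in and mitochondrial rows), had a spike-in (ERCC) share under 50%, had Malat1 under 1000 CPM (counts per 1000000 endogenous counts), and had under 3 counts or under 1000 CPM of Slc40a1, Hmox1, Igf1 and Ccl8 together. Of 157 kept wells of the plate without whole brain radiation therapy (WBRT), 57 belonged to it, a share of 36.3% (exact binomial interval 28.8 to 44.3). Of 151 kept wells of the plate with WBRT, 51 belonged to it, or 33.8% (26.3 to 41.9). The same plates held 89 and 46 Malat1-retaining wells, with at least 1000 CPM of Malat1 and no limit on the 4 genes. A further 11 and 54 wells were low in Malat1 but past the limit on the 4 genes. The whole series keeps 804 wells on 4 plates. On the plates of bone marrow-derived macrophages, the same rule found 12 of 234 wells (5.13%) without WBRT and 31 of 262 (11.8%) with it.

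Malat1 is among the most abundant noncoding RNAs of mammalian cells and stays in the nucleus, where it gathers in speckles, the bodies that store splicing factors. Ribosomal protein and metabolic messenger RNAs, in contrast, are held mostly in the cytoplasm. Immediate early genes such as Fos and Jun are transcribed within minutes of a stimulus, and their messengers are short-lived. Microglia, the resident macrophages of the brain, are told apart from blood-derived macrophages by genes such as P2ry12, Tmem119 and Sall1. Sparc codes for a matrix-binding protein, Olfml3 for a secreted glycoprotein of microglia and Cxcl13 for a chemokine that attracts B cells, and these 3 were given as the markers of the wells.

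The cells came from brains of mice bearing lung cancer brain metastases, all Balb/C athymic nude animals. Their strain, labelled CAnN.Cg-Foxn1nu/Crl, lacks mature T cells. Myeloid cells were sorted by flow cytometry into 384-well plates, 1 plate per group. The plate without WBRT carries the tumor stage label small. The plate with WBRT was labelled d3 and 5 x 2 Gy, and its stage label is not stratified. Plate, stage label and WBRT therefore cannot be told apart, and no animals are named, so no test across samples was possible. Wells are not replicates of a condition. Every interval below is at 95% and covers only counting error, and every difference is one between these wells.

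Malat1 chose the wells, so its level is a description. In Malat1-poor wells without WBRT the lowest, median and highest levels were 0, 359 and 994 CPM, and in Malat1-retaining wells 1053, 2585 and 11496 CPM. With WBRT they were 0, 0 and 895 CPM in Malat1-poor wells and 1150, 4299 and 15520 CPM in Malat1-retaining wells. Several wells near the limit held only 1 or 2 Malat1 counts, so the spaces between levels do not show whether the limit fell in a gap. Without WBRT the 3 wells just inside the limit had 991, 993 and 994 CPM and the 2 nearest outside 1053 and 1080 CPM. With WBRT the 3 nearest inside had 775, 847 and 895 CPM and the 2 nearest outside 1150 and 1172 CPM. The wells at 991 and 994 CPM held 1 Malat1 count each, at depths of 1009 and 1006 counts. The well at 895 CPM held 1, and those at 775, 847 and 1172 CPM held 2 each. The others of these wells were deeper and held at least 5. A Malat1-poor well of median depth would hold 6.89 Malat1 counts at the pooled level of Malat1-retaining wells without WBRT, and 12.2 with WBRT. The observed medians were 1 and 0 counts. Without WBRT, 17 wells had 0 counts, 24 had 1 and 16 had more. With WBRT these numbers were 32, 14 and 5. After every well was thinned to 1000 UMIs, 45.6% of Malat1-poor and 91.0% of Malat1-retaining wells without WBRT still had a Malat1 UMI (unthinned 70.2% and 100%). With WBRT the shares were 21.6% and 89.1% (unthinned 37.3% and 100%).

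Malat1-poor wells were shallower and richer in spike-in. Without WBRT their lowest, median and highest depths were 1006, 2240 and 17153 counts, against 1039, 5513 and 20820 in Malat1-retaining wells. With WBRT they were 1011, 1951 and 15338 counts, against 1170, 5835 and 20371. The median spike-in share was 15.0% against 5.39% without WBRT and 33.0% against 11.5% with it. The median mitochondrial share was 10.1% against 9.63% and 12.5% against 7.82%. A Malat1-poor well had a median of 946 detected genes without WBRT and 778 with it, against 1980 and 2116. The position of a well on its plate is not stated in the labels. By their numbers, 42 of 57 and 32 of 51 Malat1-poor wells lay in the first 192 wells, as did 53 of 89 and 30 of 46 Malat1-retaining wells.

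**Figure D1:**
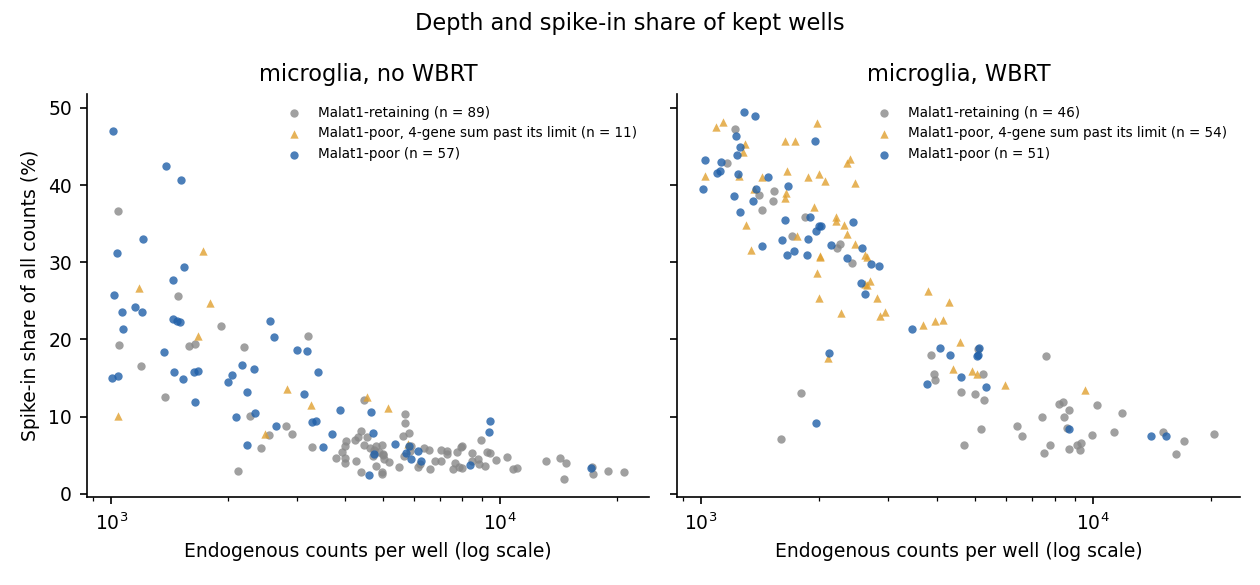
Spike-in share of all counts (%, vertical axis) against endogenous counts (horizontal axis, log scale) in each kept well of the microglia plates without WBRT (left) and with WBRT (right). Malat1-poor wells (blue, 57 and 51) have medians of 2240 and 1951 counts and Malat1-retaining wells (grey, 89 and 46) medians of 5513 and 5835 counts, but both kinds occur over the whole range; triangles are the 11 and 54 Malat1-poor wells past the limit on the 4 genes.

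Because depth differed, the 2 kinds of well were compared after matching them 1 to 1 on depth within each plate. This gave 38 pairs without WBRT (median 3328 against 3952 counts, spike-in share 10.2% against 7.07%) and 25 pairs with WBRT (2128 against 2434 counts, 19.0% against 18.0%). Left without a partner were 19 Malat1-poor wells without WBRT, with a median of 1476 counts and a spike-in share of 22.7%, and 26 with WBRT, with 1871 counts and 35.3%. Counts of matched wells were summed and given as pooled CPM. The sums were 154695 and 163356 counts without WBRT and 98859 and 108351 with it. Ratios are log2 ratios of CPM + 5, Malat1-poor over Malat1-retaining, for genes of at least 20 CPM in 1 of the 2 sets, and a gene is past the fold when this ratio is at least 1 or at most -1.

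The wells carried the markers they are named for. All 57 Malat1-poor wells without WBRT and 50 of 51 with WBRT held a count of Sparc, Olfml3 or Cxcl13. Without WBRT the lowest, median and highest Sparc levels were 0, 2823 and 12429 CPM (2 wells at 0), against 0, 2694 and 9456 CPM in Malat1-retaining wells. With WBRT they were 0, 5068 and 13862 CPM (4 wells at 0), against 0, 3427 and 9808 CPM, and 35 of 51 Malat1-poor wells lay above the median of the Malat1-retaining wells. The Sparc ranges overlapped on both plates. Cxcl13 had a median of 6532 CPM against 4863 CPM without WBRT. With WBRT its median was 579 CPM, with 19 of 51 wells at 0, against 129 CPM. Olfml3 was at 0 in 22 of 57 wells without WBRT and in 10 of 51 with it. Without WBRT, 32 of 57 Malat1-poor wells lay below the Olfml3 median of the Malat1-retaining wells. With WBRT, 18 of 51 did. At matched depth its medians per well were 484 CPM against 554 CPM without WBRT and 1470.5 CPM against 600 CPM with it. The summed level of 8 microglia markers had a median of 13041 CPM in Malat1-poor wells against 9629 CPM without WBRT, and of 12328 CPM against 7050 CPM with it.

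Markers of other cells were sparse. All 7 neutrophil and all 5 erythrocyte markers were at 0 in both kinds of well on both plates. All 8 T or NK cell markers were at 0 with WBRT. Of 16 markers of bone marrow-derived macrophages, 9 had counts in Malat1-poor wells of each plate. Over all wells they summed to 499 CPM in Malat1-poor (0 to 3471 per well) against 302 CPM in Malat1-retaining wells (0 to 1915) without WBRT. With WBRT they summed to 1525 CPM (0 to 16448) against 868 CPM (0 to 7403). Their defining receptor gene Ccr2 was at 0 in both kinds of well without WBRT. With WBRT it had 4 counts in Malat1-poor wells and 0 in Malat1-retaining wells. Ly6c2 was at 0 in Malat1-poor wells of both plates. Dendritic cell markers summed to 342 CPM against 298 CPM and to 581 CPM against 277 CPM. Astrocyte markers summed to 130 CPM against 114 CPM without WBRT and to 137 CPM against 2009 CPM with it, and the last sum came mostly from 1 well. Border-associated macrophage markers summed to 32.5 CPM against 45.6 CPM and to 205 CPM against 165 CPM. Oligodendrocyte markers summed to 141 CPM against 84.3 CPM and to 184 CPM against 228 CPM. B cell, neuron, endothelial and pericyte, and epithelial tumor markers summed to between 0 and 102 CPM in each set.

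Among the matched wells, 4 stood apart, with at least 100000 CPM of Kcnq1ot1 or at least 10000 CPM of astrocyte or of T or NK cell markers. In 1 Malat1-poor well without WBRT, Kcnq1ot1 took 23.4% of the endogenous counts. A second one had 20758 CPM of T or NK cell markers. With WBRT, 1 Malat1-retaining well had 35078 CPM of astrocyte markers, and another had 100052 CPM of Kcnq1ot1. List medians and single genes that differ most without these 4 wells are given with and without them. No such limit was set on bone marrow-derived macrophage markers or MHC class II genes. Unmatched Malat1-poor wells with WBRT reached 16448 CPM of the former and 109865 CPM of the latter, and were not left out with the 4.

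With WBRT, most genes of nuclear RNA, splicing and the immediate early response stood lower in Malat1-poor wells. Without WBRT the medians of these lists were negative too, but only 1 of 6, 6 of 21 and 1 of 19 measured members were past the fold lower. The medians of microglia identity genes were positive on both plates. Without WBRT, 828 of 6487 genes (12.8%) were past the fold higher and 1139 (17.6%) lower. With WBRT, 1280 of 7460 genes (17.2%) were higher and 2648 (35.5%) lower. The median ratio over all genes was -0.11 and -0.25, so list medians are to be read against these values. Without the wells that stood apart it was 0.06 and -0.21. On both plates at once, 118 of 5588 genes (2.11%) were past the fold higher and 391 (7%) lower. Since the wells were chosen by their own RNA, these counts are descriptions.

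The first group is a list of other noncoding RNAs, called nuclear RNAs here, which also holds hosts of small nucleolar RNAs such as Gas5. Where in the cell each of them is held was not measured. Besides Malat1, 6 of them were measured without WBRT and 8 with it. Their median ratio was -0.61 without WBRT, where 1 was past the fold higher and 1 lower, and -3.12 with WBRT, where 1 was past the fold higher and 6 lower (-3.36 without the wells that stood apart). With WBRT, 2 of the 8 had 0 counts in 1 set, and with those at the bound that a floor of 3 counts gives the median was -1.38. Xist, the noncoding RNA that silences 1 X chromosome in female cells (X:103460373-103483233, GRCm38), had 142 CPM against 551 CPM without WBRT, a level 3.87-fold lower (2.41 to 6.49). With WBRT it had 1 count, or 10.1 CPM, against 794 CPM, a ratio of 78.5 (13.7 to 3130). Single wells show the same: without WBRT, 45 of 57 Malat1-poor wells and 21 of 89 Malat1-retaining wells had no Xist count. With WBRT these were 48 of 51 and 14 of 46. At 1000 UMIs per well, Xist had a UMI in 12.3% of Malat1-poor and 38.2% of Malat1-retaining wells without WBRT (unthinned 21.1% and 76.4%), and in 1.96% and 43.5% with it (unthinned 5.88% and 69.6%).

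Kcnq1ot1, a long antisense RNA made inside the imprinted Kcnq1 gene (7:143213111-143296547), had a median of 939 CPM per Malat1-poor well against 2256 CPM without WBRT, and of 352 CPM against 3434 CPM with it. The files do not state whether reads were counted by strand, so Kcnq1ot1 and Kcnq1 reads cannot be told apart. Its pooled level without WBRT was 14784 CPM against 3551 CPM, and 85.5% of the Malat1-poor counts came from 1 well. Without the highest well of each set it was 2266 CPM against 2881 CPM (log2 ratio -0.35). With WBRT the pooled level was 344 CPM against 5462 CPM, 15.9-fold lower (11.2 to 23.2). Gas5, a host of small nucleolar RNAs, had 421 CPM against 441 CPM without WBRT and 40.5 CPM against 332 CPM with it. Neat1, the scaffold of paraspeckles, was too sparse to compare per well: it was at 0 in 53 of 57 and 49 of 51 Malat1-poor wells, and in 64 of 89 and 31 of 46 Malat1-retaining wells.

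Genes of splicing and nuclear speckles, whose messengers are protein-coding, stood lower too. Without WBRT, 16 of 21 measured genes had a negative ratio and 6 were past the fold lower, with a median of -0.53. With WBRT, 19 of 21 had a negative ratio and 16 were past the fold, with a median of -2.03 (-1.98 without the wells that stood apart, and -1.95 with 1 gene of 0 counts at its bound). Srsf7, a splicing factor rich in serine and arginine (17:80200080-80207369), had 123 CPM against 355 CPM without WBRT, 2.89-fold lower (1.70 to 5.14), and 40.5 CPM against 462 CPM with it, 11.4-fold lower (4.19 to 43.5). Srsf11, of the same family, had 155 CPM against 416 CPM and 50.6 CPM against 277 CPM. Tra2b, a splicing activator, had 64.6 CPM against 257 CPM and 70.8 CPM against 342 CPM. Clk1, a kinase of splicing factors, had 136 CPM against 343 CPM and 70.8 CPM against 499 CPM. The 4 genes stood lower on both plates. Per well, the summed level of the list had a lowest, median and highest value of 0, 5066 and 17503 CPM without WBRT, against 1885, 8858 and 15660 CPM. With WBRT it was 0, 2688 and 10745 CPM against 1627, 11629 and 23695 CPM. The ranges overlapped on both plates, but all 51 Malat1-poor wells with WBRT lay below the median of the Malat1-retaining wells, as did 47 of 57 without WBRT. At matched depth the Malat1-poor well was the lower one in 26 of 38 and 23 of 25 pairs.

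Among the 12 genes lowest on both plates by the naming rule were Nxf1, Bcl6, Nipbl and Spen. Nxf1, the main export receptor of messenger RNA, had 64.6 CPM against 202 CPM without WBRT and 20.2 CPM against 203 CPM with it. Bcl6, a transcriptional repressor, had 45.3 CPM against 239 CPM and 20.2 CPM against 175 CPM. Nipbl, which loads cohesin onto chromatin, had 38.8 CPM against 165 CPM and 30.3 CPM against 185 CPM, and Spen, a repressor that binds Xist, had 38.8 CPM against 141 CPM and 30.3 CPM against 212 CPM. The other lowest genes were Xist, Tra2b, Srsf7, Srsf11, Nufip2, Rapgef1, Tmem230 and Glrx2. They form no list that was tested as a whole.

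Immediate early genes stood lower too. All 19 measured genes had a negative ratio on both plates. Without the wells that stood apart, 17 of 20 were negative and 3 positive without WBRT, and all 19 were negative with it. Without WBRT the median was -0.51 and 1 gene was past the fold; with WBRT the median was -2.85 and all 19 were past it. Their summed pooled level was 20794 CPM against 32797 CPM without WBRT, 1.58-fold lower, and 4568 CPM against 31734 CPM with it, 6.95-fold lower. These genes are known for control through the cAMP response element, and the promoters of Fos and Dusp1 are shown with its core, TGACG, in capitals on either strand. Both are RefSeq sequences of GRCm38.p6, from 250 bases before to 50 after the annotated start. Fos codes for a subunit of the AP-1 transcription factor (chr12:85473640-85473939, plus strand), and Dusp1 for a phosphatase that switches off MAP kinases (chr17:26508423-26508722, minus strand). They were chosen after their values were seen.
Fos: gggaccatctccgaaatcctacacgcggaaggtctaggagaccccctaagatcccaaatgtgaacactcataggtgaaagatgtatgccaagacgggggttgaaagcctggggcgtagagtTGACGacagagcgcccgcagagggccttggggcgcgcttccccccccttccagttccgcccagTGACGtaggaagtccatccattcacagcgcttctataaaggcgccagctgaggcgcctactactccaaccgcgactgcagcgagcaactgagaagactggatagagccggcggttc
Dusp1: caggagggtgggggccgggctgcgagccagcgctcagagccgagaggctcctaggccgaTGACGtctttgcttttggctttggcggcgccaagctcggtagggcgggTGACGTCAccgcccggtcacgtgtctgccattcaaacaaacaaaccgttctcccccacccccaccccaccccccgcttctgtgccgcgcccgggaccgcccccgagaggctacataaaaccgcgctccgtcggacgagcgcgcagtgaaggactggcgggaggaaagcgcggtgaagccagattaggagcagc
In this window Fos has 2 TGACG matches. Dusp1 has 3, since 1 of its sites is the palindrome TGACGTCA, which matches on both strands. TGACG was found in 10 of 16 immediate early promoters in the table (62.5%), against 6228 of 27025 promoters of all genes (23.05%). It was also in 17 of 26 ribosomal protein promoters (65.4%), 11 of 21 splicing promoters (52.4%) and 2 of 13 microglia identity promoters (15.4%). The whole palindrome TGACGTCA was in 2 of 16 immediate early promoters (12.5%), 5 of 26 ribosomal protein promoters (19.2%) and 549 of all 27025 (2.03%). The serum response element (CArG box) was in 2 of 16 (12.5%) and in 488 of all (1.81%). The AP-1 motif TGANTCA was in 0 of 16 and in 2425 of all (8.97%), and TATAAA in 2 of 16 (12.5%) and in 4234 of all (15.7%). A match is a string of letters and not a bound site.

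Fos had a lowest, median and highest level of 0, 994 and 7599 CPM in Malat1-poor wells without WBRT (11 of 57 at 0), against 0, 3748 and 8739 CPM (3 of 89 at 0). With WBRT it was 0, 0 and 3941 CPM (40 of 51 at 0), against 0, 4439 and 12816 CPM (7 of 46 at 0). The ranges overlapped, but with WBRT most Malat1-poor wells had none. At 1000 UMIs per well, Fos had a UMI in 68.4% of Malat1-poor and 89.9% of Malat1-retaining wells without WBRT (unthinned 80.7% and 96.6%), and in 9.80% and 78.3% with it (unthinned 21.6% and 84.8%). At matched depth its pooled level was 2487 CPM against 3901 CPM without WBRT, 1.57-fold lower (1.38 to 1.78), and 672 CPM against 4496 CPM with it, 6.69-fold lower (5.20 to 8.84). In the last comparison 1 well gave 91.0% of the Malat1-poor Fos counts, and without the highest well of each set the log2 ratio was -5.76. Dusp1 had 660 CPM against 913 CPM without WBRT and 152 CPM against 1517 CPM with it, 9.99-fold lower (5.87 to 18.2), and again 1 well gave 93.3% of its counts.

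The other members named by the rule showed the same direction. Jun, the partner of Fos (4:95049036-95052222), had 1633 CPM against 3225 CPM without WBRT and 497 CPM against 2771 CPM with it. Fosb, a relative of Fos, had 1050 CPM against 1450 CPM and 70.8 CPM against 1174 CPM. Egr2, a zinc finger factor and the member past the fold without WBRT, had 149 CPM against 343 CPM there. With WBRT it had 0 counts against 259 CPM, at least 8.52-fold lower against a floor of 3 counts over the set. Klf4, a zinc finger factor of macrophage activation (4:55527137-55532475), had 168 CPM against 214 CPM without WBRT. With WBRT it had 2 counts, or 20.2 CPM, against 1035 CPM, a ratio of 51.2 (13.8 to 427). Klf2, Ier3 and Nr4a1 had 70.8, 40.5 and 80.9 CPM with WBRT, against 1120, 898 and 730 CPM.

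The gap varied with depth on both plates. Per well, the summed immediate early level had a lowest, median and highest value of 1464, 8481 and 64818 CPM without WBRT, against 4371, 30082 and 56687 CPM. With WBRT it was 0, 1499 and 21683 CPM against 652, 40223 and 79829 CPM. Without WBRT the ranges overlapped, with 8 of 57 Malat1-poor wells below the lowest Malat1-retaining well, and with WBRT 30 of 46 Malat1-retaining wells lay above the highest Malat1-poor well. Among wells without WBRT with at least 4000 counts, the medians were 27935 CPM (14 wells) and 30801 CPM (67 wells). At 2000 to 4000 counts they were 8481 CPM (19 wells, spike-in share 12.9%) and 30353 CPM (14 wells, 6.15%). At 1000 to 2000 counts they were 7700 CPM (24 wells, 22.6%) and 11880 CPM (8 wells, 19.4%). With WBRT the medians at 4000 counts and above were 1425 CPM (10 wells, spike-in share 16.5%) and 49312 CPM (30 wells, 8.50%). At 2000 to 4000 counts they were 1327 CPM (13 wells) and 5616 CPM (6 wells), and below that 1679 CPM (28 wells) and 4838 CPM (10 wells). With WBRT the Malat1-poor medians were below the Malat1-retaining ones at every depth and differed little among themselves, and without WBRT the medians of the deepest wells were close. The spike-in share was higher in shallower wells of both kinds, and its part in the result was not tested. At matched depth the Malat1-poor well was the lower one in 27 of 38 and 21 of 25 pairs. The Malat1-poor wells with WBRT that were past the limit on the 4 genes had a like median of 1778 CPM.

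**Figure D2:**
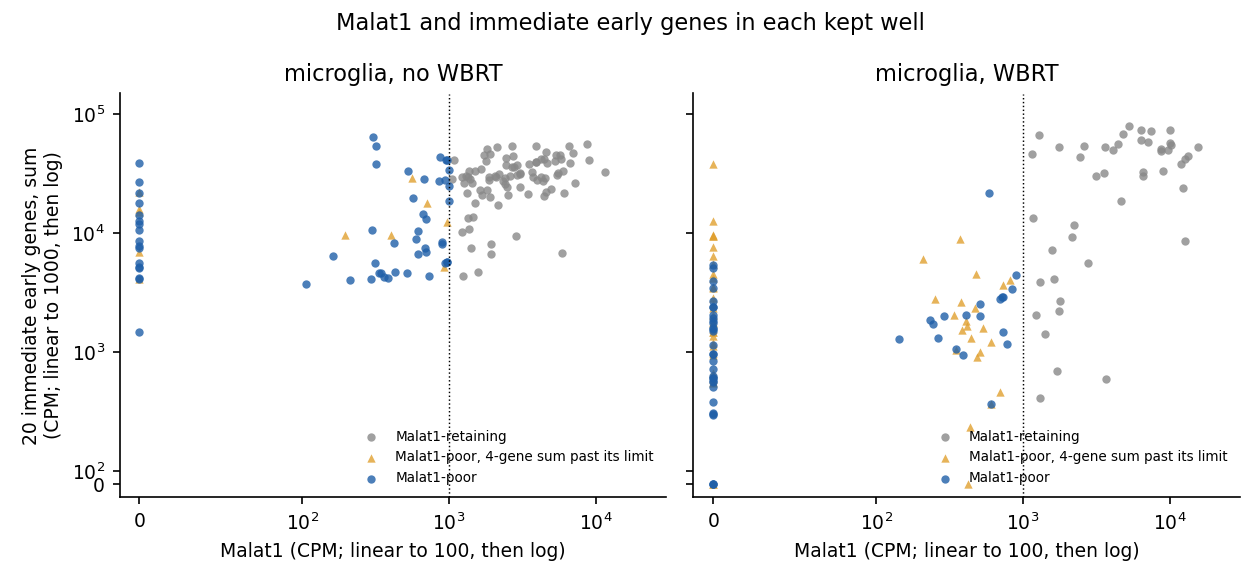
Summed level of the immediate early genes (CPM, vertical axis, linear to 1000 and then log) against Malat1 (CPM, horizontal axis, linear to 100 and then log) in each kept well without WBRT (left) and with WBRT (right); the dotted line is the limit of 1000 CPM. With WBRT, 1 Malat1-poor well (blue) reached 21683 CPM and the others stayed at or below 5379 CPM, while Malat1-retaining wells (grey) ranged from 652 to 79829 CPM.

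**Figure D3:**
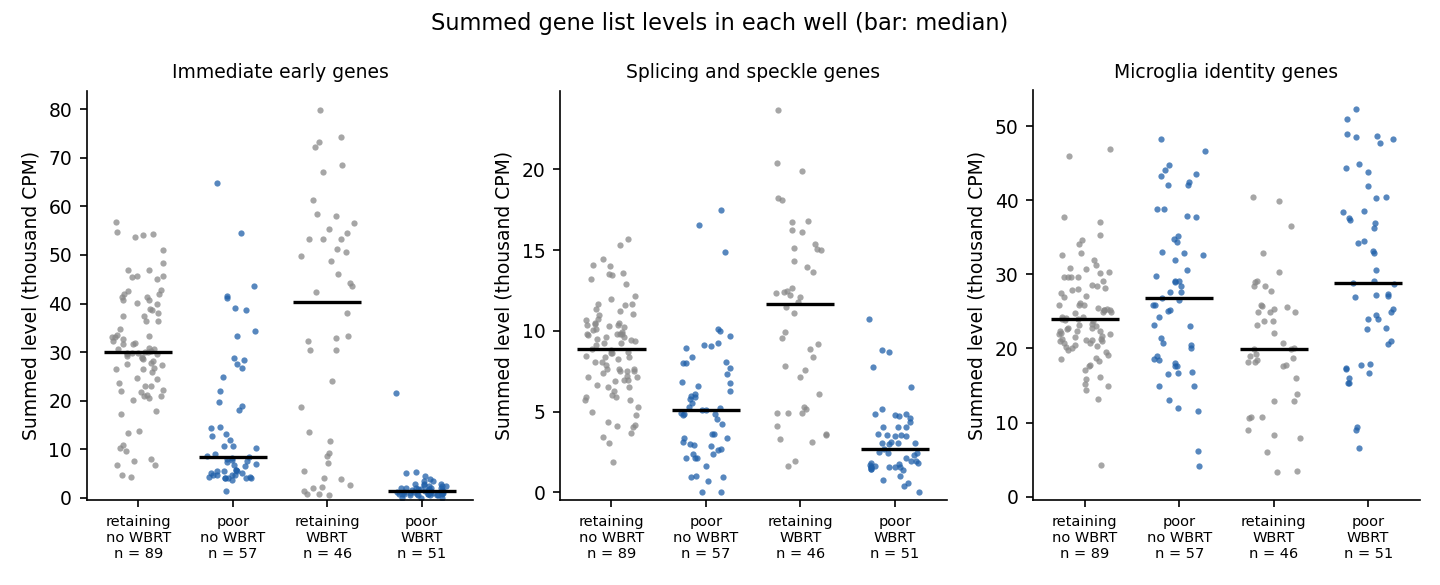
Summed levels (CPM, in units of 1000) of immediate early, splicing and speckle, and microglia identity genes in every Malat1-retaining (grey) and Malat1-poor (blue) well of both plates, with the median as a bar. The first 2 lists have lower medians in Malat1-poor wells on both plates, and the identity list has medians of 26852 against 23939 CPM without WBRT and 28822 against 19990 CPM with it.

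Microglia identity genes did not stand lower. Of 18 measured, 14 had a positive ratio without WBRT, with 1 past the fold higher and 0 lower and a median of 0.19 (0.20 without the wells that stood apart). With WBRT, 16 of 18 had a positive ratio, 5 were past the fold higher and 2 lower, and the median was 0.72 (0.42 without the wells that stood apart). Per well their summed level had a lowest, median and highest value of 4192, 26852 and 48271 CPM without WBRT, against 4258, 23939 and 46973 CPM. With WBRT it was 6578, 28822 and 52358 CPM against 3272, 19990 and 40420 CPM. The ranges overlapped on both plates, and 35 of 57 and 40 of 51 Malat1-poor wells lay above the median of the Malat1-retaining wells.

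Single members differed. Gpr34, a lysophosphatidylserine receptor of microglia (X:13622650-13640859), had 259 CPM against 91.8 CPM without WBRT, 2.82-fold higher (1.52 to 5.49), and 435 CPM against 129 CPM with it, 3.37-fold higher (1.81 to 6.66). At 1000 UMIs per well, however, it had a UMI in 21.1% of Malat1-poor and 12.4% of Malat1-retaining wells without WBRT (unthinned 42.1% and 49.4%), and in 27.5% and 26.1% with it (unthinned 49.0% and 56.5%). Sparc was 1.24-fold higher (1.09 to 1.41) without WBRT and 1.98-fold higher (1.72 to 2.27) with it. Cxcl13 was 1.36-fold higher without WBRT. With WBRT it had 4609 CPM against 1605 CPM, where 1 well gave 89.6% of the Malat1-retaining counts.

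Fcrls, an Fc receptor-like gene of microglia, had 658 CPM against 314 CPM with WBRT, Aif1, which codes for the microglial protein Iba1, had 800 CPM against 277 CPM, and Olfml3 had 1737 CPM against 1040 CPM. Without WBRT their log2 ratios were 0.38, 0.02 and 0.30. Of the receptors that mark resting microglia, P2ry12 had log2 ratios of 0.27 without WBRT and 0.49 with it (-0.13 without the wells that stood apart), and Tmem119 had 0.37 and 0.20 (-0.44 without those wells). Cx3cr1, the fractalkine receptor, had -0.13 and 0.67, and Csf1r, the receptor that keeps microglia alive, had -0.12 and 0.88. The surface receptor genes Trem2 and Itgam had 0.22 and 0.12 without WBRT and 0.68 and 1.21 with it. Selplg, P2ry13 and Sall1 had 0.17, 0.01 and 0.60 without WBRT and 0.57, 0.23 and 0.12 with it. Without the wells that stood apart, P2ry13 had -0.07 and -0.15, and Sall1 had 0.16 and -0.53. In the other direction, Siglech, a sialic acid receptor, had a log2 ratio of -0.01 without WBRT and 182 CPM against 416 CPM with it.

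**Figure D4:**
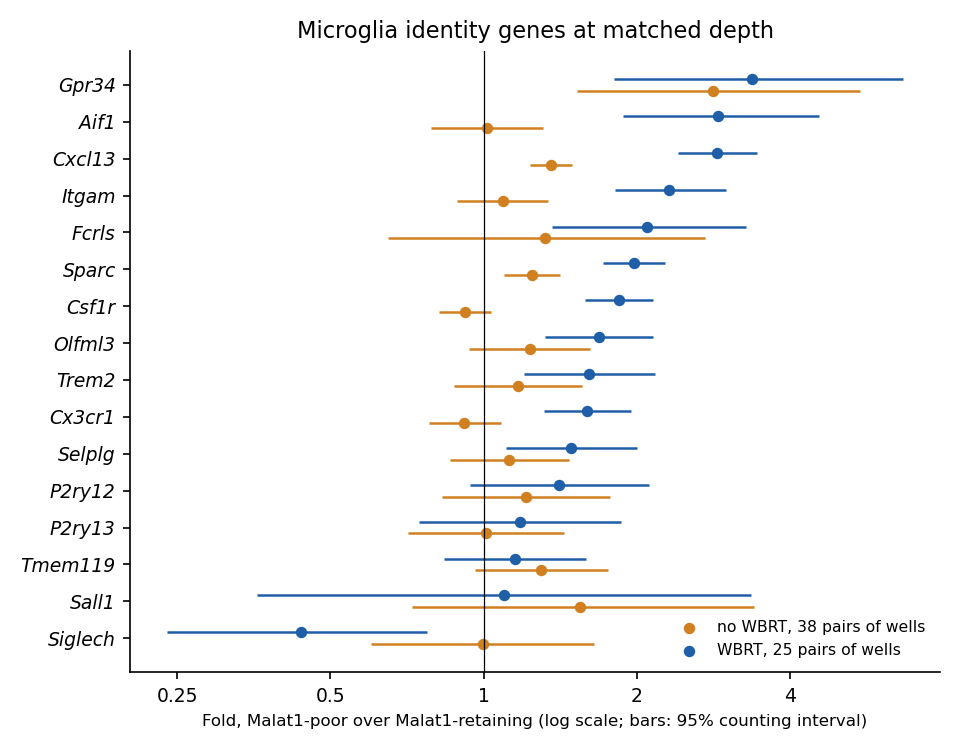
Fold of 16 microglia identity genes in Malat1-poor over Malat1-retaining wells at matched depth (horizontal axis, log scale) without WBRT (orange, 38 pairs of wells) and with WBRT (blue, 25 pairs), with 95% counting intervals as bars. Among the genes drawn, Gpr34 is highest on both plates at 2.82 and 3.37, and most folds without WBRT have intervals that hold 1.

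Genes higher on both plates were led by Ube2m, which codes for an enzyme that attaches the ubiquitin-like protein Nedd8 (7:13035120-13038275). It had 149 CPM against 24.5 CPM without WBRT, 6.07-fold higher (2.07 to 24.2), and 162 CPM against 27.7 CPM with it, 5.85-fold higher (1.67 to 31.3). These rest on few counts, since 11 of 57 and 10 of 51 wells held any. Spp1, which codes for the secreted phosphoprotein osteopontin (5:104435111-104441053), had 2777 CPM against 1843 CPM without WBRT and 6060 CPM against 1146 CPM with it, 5.29-fold higher (4.36 to 6.48). Its median per matched well with WBRT was 783 CPM against 855 CPM, so the pooled difference was carried by few wells. The glycolytic genes Gapdh and Ldha had 925 CPM against 569 CPM and 537 CPM against 325 CPM without WBRT, and 2000 CPM against 683 CPM and 872 CPM against 388 CPM with it. Tmsb4x, which binds actin monomers, and the tubulin gene Tubb5 had log2 ratios of 0.45 and 0.67 without WBRT and 1.11 and 1.58 with it. Eef1a1, an elongation factor of translation, had 0.30 and 0.87, and Ptp4a2, a phosphatase held at membranes, had 0.83 and 1.08.

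The lists of this paragraph had positive medians on both plates, but several were small without WBRT. There the sign held in all 14 alternatives for ribosomal protein and glycolysis genes. It held in 13 for disease-associated, 12 for actin, 10 for oxidative phosphorylation, 8 for complement and 7 for lysosome genes. Without the wells that stood apart, the last 3 had 0.07, 0.04 and 0.08, beside 0.06 for all genes. Of the ribosomal protein genes, 26 of 34 had a positive ratio without WBRT and 33 of 34 with it, where 13 were past the fold. Their medians were 0.14 and 0.87, and their summed level was 53087 CPM against 48584 CPM and 49548 CPM against 27545 CPM. Glycolysis had 10 of 13 positive without WBRT (median 0.31) and 10 of 14 with it (0.95). Actin and cytoskeleton genes had a median of 0.17 without WBRT and 0.63 with it, with 16 of 18 positive. Disease-associated microglia genes, those raised in microglia around plaques and lesions, had 12 of 18 positive (0.08) and 16 of 20 positive (0.50), with 6 past the fold higher and 2 lower. Lysosome and complement genes had medians of 0.08 and 0.02 without WBRT and 0.55 and 0.47 with it. Oxidative phosphorylation genes had medians of 0.11 and 0.25, with 15 of 27 positive on each plate and 3 past the fold higher and 1 lower with WBRT, against 17.2% and 35.5% of all genes. Relative to endogenous counts, mitochondrial transcripts were 1.01-fold those of Malat1-retaining wells without WBRT and 1.42-fold with it. The mitochondrial ribosomal RNAs mt-Rnr1 and mt-Rnr2 were 2.37-fold and 1.97-fold higher with WBRT.

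Stress and inflammatory genes stood lower with WBRT only in part. Inflammatory cytokines and chemokines had a median of 0.20 without WBRT and -1.07 with it, with 9 of 14 past the fold lower (-1.56 without the wells that stood apart). The value of 0.20 kept its sign in 8 of 14 alternatives. Per well, the summed level without WBRT was below the Malat1-retaining median in 45 of 57 Malat1-poor wells. At matched depth the medians per well there were 6707 CPM against 10230 CPM. Genes of p53 and the DNA damage response had 0.10 and -1.41, with 10 of 16 past the fold lower, and -0.44 with 5 genes of 0 counts in 1 set at their bounds. The value of 0.10 kept its sign in 8 of 14 alternatives. Their summed level without WBRT was below the Malat1-retaining median in 43 of 57 Malat1-poor wells. Btg2, an antiproliferative target of p53, had 1412 CPM against 2418 CPM without WBRT and 355 CPM against 2148 CPM with it, and Cdkn1a, which codes for the cell cycle inhibitor p21, had 653 CPM against 815 CPM and 1214 CPM against 2988 CPM. Iron and redox genes had 0.14 and -1.06, but the latter was -0.24 without the wells that stood apart and -0.47 with 3 genes at their bounds. The limit on Slc40a1, Hmox1, Igf1 and Ccl8 held for Malat1-poor wells only, so the 2 sets were not chosen alike, for this list or any other. Cell death genes had 0.34 and -0.73, and the former was -0.05 without those wells. Heat shock genes had -0.44 and -0.38. Interferon response genes had 0.11 and -0.21, and the latter was -0.72 without the wells that stood apart. With WBRT, 5 of 21 were past the fold higher and 8 lower. Of all genes there, 17.2% were higher and 35.5% lower, so these numbers are not read as a trait of the list.

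**Figure D5:**
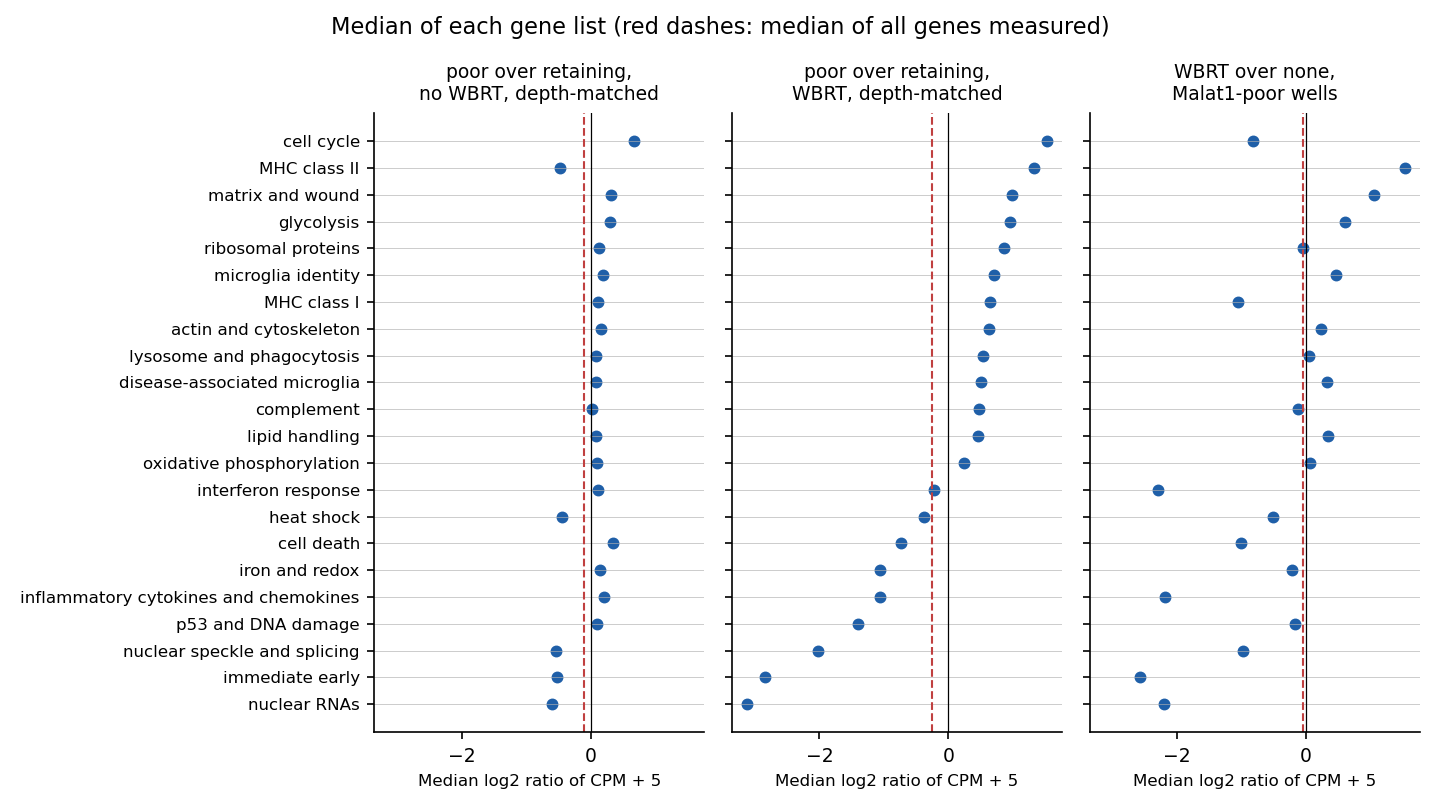
Median log2 ratio of CPM + 5 of each gene list for Malat1-poor over Malat1-retaining wells without WBRT (left) and with WBRT (centre) and for WBRT over none in Malat1-poor wells (right); red dashes are the medians over all genes measured, -0.11, -0.25 and -0.04. Nuclear RNAs, immediate early genes and splicing genes lie lowest with WBRT, at -3.12, -2.85 and -2.03, and interferon response genes are low in the right panel at -2.30; the panels share wells.

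Malat1-poor wells with WBRT were then compared with those without, 51 against 57 wells and 146352 against 184415 counts. Interferon, MHC class I and immediate early genes stood lower with WBRT, and lysozyme and matrix genes higher. Of 6834 genes, 1277 (18.7%) were past the fold higher and 1669 (24.4%) lower, with a median of -0.04. The same ratio in Malat1-retaining wells (46 against 89 wells) is given beside the lists and beside the genes for which it is named. There 1098 of 7198 genes (15.3%) were past the fold higher and 730 (10.1%) lower, with a median of 0.12. The difference between the 2 ratios was not tested. This comparison shares wells with the ones above, and its sets differed in spike-in share (33.0% against 15.0%). The limit on the 4 genes left out 54 wells low in Malat1 with WBRT and 11 without it. Its part in the WBRT ratios was not tested.

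All 24 measured interferon response genes had a negative ratio, and 20 were past the fold lower, with a median of -2.30 (-2.12 with 2 genes of 0 counts at their bounds). Their summed level was 1189 CPM against 6451 CPM, 5.42-fold lower. In Malat1-retaining wells 22 of 24 were negative and 14 past the fold, with a median of -1.23 and 1571 CPM against 5088 CPM. Ifi44, a gene induced by type I interferon, had 68.3 CPM against 901 CPM, 13.2-fold lower (6.99 to 28.0), and 139 CPM against 682 CPM in Malat1-retaining wells. Ifit3, which restrains viral RNA, had 13.7 CPM against 320 CPM. Oasl1, of the 2'-5' oligoadenylate synthetase family, had 0 counts against 179 CPM, at least 8.73-fold lower, and it was also at 0 in Malat1-retaining wells with WBRT, against 162 CPM. Ly6a, a surface protein induced by interferon, had 0 counts against 179 CPM, and 0 against 232 CPM in Malat1-retaining wells. MHC class I genes, which show peptides to cytotoxic T cells, had a median of -1.05 with 11 of 11 negative and 6 past the fold, and -1.37 in Malat1-retaining wells. B2m, their shared light chain, had 4155 CPM against 8915 CPM, and 3138 CPM against 8389 CPM in Malat1-retaining wells.

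The chemokine gene Ccl5, which attracts T cells and monocytes (11:83525778-83530518), had 3 counts, or 20.5 CPM, against 1344 CPM, a ratio of 65.6 (22.2 to 320). Only 2 of 51 Malat1-poor wells with WBRT held it. In Malat1-retaining wells it had 89.1 CPM against 721 CPM. The cytokine gene Osm had 1 count against 489 CPM, a ratio of 71.6 (12.5 to 2852), and 168 CPM against 638 CPM in Malat1-retaining wells. Cp, which codes for the copper carrier ceruloplasmin, had 0 counts against 336 CPM, at least 16.4-fold lower, and 85.8 CPM against 234 CPM in Malat1-retaining wells. Cd300lf, an inhibitory receptor of myeloid cells, had 1 count against 282 CPM, and 19.8 CPM against 437 CPM there. Cytokines and chemokines as a list had a median of -2.18 (-1.99 with 1 gene at its bound), with 9 of 15 past the fold lower and 1 higher, and 0.15 in Malat1-retaining wells. Ppfia4 and Mafk had 0 counts against 282 CPM and 130 CPM, and Tgif1 had 1 count against 298 CPM. For Grk4, 84.7% of the counts without WBRT came from 1 well. Kcnq1ot1 had 396 CPM against 12602 CPM, with 84.1% of the counts without WBRT in 1 well, and a log2 ratio of -2.41 without the highest well of each set.

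Immediate early genes were lower in Malat1-poor wells with WBRT, and not in the pooled counts of all Malat1-retaining wells. All 19 measured were past the fold lower, with a median of -2.58 and a summed level of 3700 CPM against 19032 CPM, 5.14-fold lower. In Malat1-retaining wells the median was 0.33, with 15 of 19 positive, and the sums were 40239 CPM against 31304 CPM. These pooled values were not matched on depth, and deep wells weigh most in them. Malat1-retaining wells with a matched partner had medians per well of 9219 CPM with WBRT and 29424 CPM without it. Their median depths were 2434 and 3952 counts. Nr4a1, an orphan nuclear receptor, had 61.5 CPM against 935 CPM, and Fosb had 82.0 CPM against 967 CPM. Jun had 493 CPM against 1510 CPM, and 4160 CPM against 2500 CPM in Malat1-retaining wells. Nuclear RNAs and splicing genes had medians of -2.21 and -0.98 in Malat1-poor wells and of 0.51 and 0.21 in Malat1-retaining ones. The wells without WBRT had the higher Malat1 median, 359 against 0 CPM, within the same limit.

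Genes higher with WBRT were led by Clec7a, the receptor for fungal glucans that marks disease-associated microglia (6:129461591-129472785). It had 342 CPM against 16.3 CPM, 21.0-fold higher (6.78 to 105), with counts in 16 of 51 wells against 3 of 57. In Malat1-retaining wells it was 7.96-fold higher. Lpl, the lipoprotein lipase that releases fatty acids (8:68880555-68906932), had 808 CPM against 48.8 CPM, 16.6-fold higher (8.41 to 37.0), and was 4.20-fold higher in Malat1-retaining wells. It was present in 19 of 51 wells against 4 of 57. Ccnd1, the G1 cyclin, had 636 CPM against 65.1 CPM, 9.77-fold higher (5.33 to 19.6), and 353 CPM against 116 CPM in Malat1-retaining wells. The lysozyme genes Lyz2 and Lyz1, near-identical copies whose reads the counting may split, had 842 CPM against 119 CPM and 3361 CPM against 575 CPM. In Malat1-retaining wells they had 274 CPM against 65.0 CPM and 1551 CPM against 436 CPM. Lyz2 is also among the markers of bone marrow-derived macrophages, which summed to 1525 CPM in Malat1-poor wells with WBRT against 499 CPM without it, and the part of such cells in the result was not tested.

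Matrix and wound genes had a median of 1.06, with 9 of 11 positive, 7 past the fold higher and 1 lower, against -0.45 in Malat1-retaining wells. Fn1, the matrix protein fibronectin, had 851 CPM against 48.8 CPM, and 49.3% of the counts with WBRT came from 1 well. Mmp14, a membrane-bound matrix protease, had 246 CPM against 43.4 CPM, and Sparc had 5601 CPM against 3323 CPM, 1.69-fold higher (1.52 to 1.87). Bmp2k, St6gal1, Jak3 and Got1 had 171, 116, 178 and 171 CPM against 10.8, 10.8, 21.7 and 21.7 CPM. Cxcl13 went the other way, with 4005 CPM against 6948 CPM, 1.73-fold lower, and 3.72-fold lower in Malat1-retaining wells. Identity genes as a list had a median of 0.47, with 14 of 18 positive, 2 past the fold higher and 1 lower, and 0.25 in Malat1-retaining wells. Fcrls had 601 CPM against 130 CPM. Ribosomal protein genes had a median of -0.04 in Malat1-poor wells, at 53089 CPM against 55034 CPM, and of -0.93 in Malat1-retaining wells, at 25274 CPM against 47104 CPM.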

How the data were processed

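Single myeloid cells were counted on 4 plates of 384 wells, 1 per group. What the authors deposited are estimated counts, 1 per gene and well, not normalized. The genome build was GRCm38 per the submitters' processing notes. The aligner, counter and gene models: not given in the sources used here. Correction for chance coincidence among 4096 identifiers gave 98.5% of the nonzero values to within 0.0051, so the UMIs seen could be recovered for thinning to 1000 per well, which left out no well. Expected counts from the deposited tables were rounded only for count intervals and TMM factors. The single values of 3 named genes are not reported here. Rows of Rn45s and the overlapping Mir5109 were not read as biology.

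Malat1-poor and Malat1-retaining wells of a plate were matched 1 to 1 by the assignment with the smallest summed difference in log2 depth, within 0.25 log2. With 1 plate per group no test was made. Intervals are exact Poisson, conditional binomial (folds) or Clopper-Pearson, at 95%; transcripts of a well are not independent. A log2 ratio of CPM + 5 understates differences of low genes. A set with 0 counts was given a floor of 3 counts, which is 19.4 and 18.4 CPM without WBRT and 30.3 and 27.7 CPM with it in the matched sets. The members, the 22 gene lists (404 symbols, 14 not in the files) and the 13 marker lists were chosen with earlier results of these data known. Named genes were the 12 highest and 12 lowest with at least 100 CPM in 1 set, counts in at least 20% of those wells and Poisson intervals that do not overlap, on both plates and in the same direction for Malat1-poor over Malat1-retaining wells, plus up to 4 members of each list and all identity genes, without mitochondrial, ribosomal protein, numbered predicted and rule genes. Alternatives were other limits on counts, Malat1, spike-in share and gene level, another pseudocount, denominator or scaling (edgeR 4.0.16), thinning, no matching, and leaving out the deepest wells; leaving out the 4 wells that stood apart, and each gene's highest wells, was added after seeing the data. Python 3.11.15, numpy 2.4.6, pandas 2.3.3 and scipy 1.17.1 were used. The computation was tested on simulated data.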

Additional observations from a re-analysis of the deposited data

Results flagged for a closer look

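For 10 named genes the WBRT ratio was past the fold in opposite directions in Malat1-poor and Malat1-retaining wells, with counting intervals of both folds that exclude 1. These differences were not tested, and each group is 1 plate. Of all genes, 18.7% were past the fold higher and 24.4% lower in Malat1-poor wells, and 15.3% and 10.1% in Malat1-retaining wells. The share of all genes past it in opposite directions is not given here, so the 10 are not read as many or few. The first value is the log2 ratio of CPM + 5, WBRT over none, in Malat1-poor wells, and the second is the same in Malat1-retaining wells. Genes lower in Malat1-poor wells with WBRT were Klf4 (-3.02 and 1.13), Casp4, an inflammatory caspase (-2.86 and 1.39), Il1rn, the interleukin-1 receptor antagonist (-2.53 and 1.78), Dnajb1, a heat shock co-chaperone (-2.47 and 1.07), and Clk1 (-1.23 and 1.41). Plk2, a p53-responsive kinase, had -3.27 and 1.38, with 0 counts against 8 in Malat1-poor wells, so that its ratio is no bound. Higher in Malat1-poor wells with WBRT were Got1, the cytosolic aspartate aminotransferase (2.72 and -1.20), and the antigen presentation genes Cd74 (2.70 and -2.81), H2-Ab1 (1.89 and -1.87) and H2-Aa (1.43 and -2.97). Cd74 had 64.0% of its counts with WBRT in 1 Malat1-poor well. Without each gene's highest well in each set, the ratios in Malat1-poor wells were 1.43 for Cd74, 1.02 for H2-Ab1 and -0.61 for H2-Aa.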

How the results depend on the processing

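No paired analysis was possible because each group is 1 plate, and for the same reason no replicate could be left out. Counts past the fold moved with the limit on gene level and with thinning: at 100 CPM they were 126 higher and 176 lower (main values 828 and 1139) for Malat1-poor over Malat1-retaining wells without WBRT, 346 and 690 with WBRT (1280 and 2648), and 260 and 362 for WBRT over none (1277 and 1669). Without WBRT they were 1382 and 1730 with a Malat1 limit of 500 CPM and 2107 and 2345 after thinning, and 453 higher without depth matching. Wells in the set numbered 22 and 12 at 3000 counts (57 and 51), 32 without WBRT at 500 CPM of Malat1, and 14 with WBRT at a spike-in share under 25%. MHC class II reversed at 3000 counts, with a median of -0.33 for Malat1-poor over Malat1-retaining wells with WBRT and of -0.67 for WBRT over none, and of -0.26 there at a Malat1 limit of 2000 CPM. Cd74 did so in the last comparison at -0.67 and -0.17, and Rapgef1 without WBRT at 0.54 after thinning. The causes were not tested. Without each gene's highest wells the counts were 691 and 1007, 1012 and 1821, and 938 and 1449. The immediate early median ranged from -4.60 to -2.75 with WBRT, from -1.19 to -0.33 without it and from -3.35 to -1.98 for WBRT over none, the splicing median from -2.32 to -1.80, from -0.82 to -0.44 and from -1.41 to -0.47, and the interferon median for WBRT over none from -3.11 to -1.96, with 1 direction in every alternative. The identity median ranged from 0.38 to 0.82 with WBRT and from -0.03 to 0.27 without it. Shallow wells limit all values of low genes.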

Other observations

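By list median, cell cycle genes stood higher in Malat1-poor than in Malat1-retaining wells at matched depth. The median log2 ratio was 0.67 without WBRT, with 9 of 26 past the fold higher and 1 lower, against 12.8% and 17.6% of all genes. With WBRT it was 1.53, with 11 of 20 higher and 0 lower, against 17.2% and 35.5%. Summed per matched well, the medians were closer, at 2619 CPM against 2489 CPM without WBRT and 2088 CPM against 1765 CPM with it. Counts were few. With WBRT, 8 of the 20 had 0 counts in 1 set, and with these at the bound that a floor of 3 counts gives the median was 0.55. There Mki67, a protein of dividing nuclei, had 8 counts against 1, and without WBRT 8 against 5. Comparing WBRT with none, the same list had a median of -0.82 in Malat1-poor wells (-0.67 with 3 genes at their bounds). There 11 of 26 were past the fold lower and 1 higher, against 24.4% and 18.7% of all genes. In Malat1-retaining wells the median was -1.55 (-1.41 with 3 genes at their bounds). Top2a, which untangles replicated chromosomes, had 1 count with WBRT against 18 without it in Malat1-poor wells, and 0 against 63.1 counts in Malat1-retaining wells. Stmn1, a regulator of microtubules, had 3 counts against 26, and 3 against 38.

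MHC class II genes, which show peptides to helper T cells, had a median of -0.47 without WBRT and 1.32 with it for Malat1-poor over Malat1-retaining wells. For WBRT over none the median was 1.53 in Malat1-poor wells and -2.34 in Malat1-retaining wells. These medians rest on 5 or 6 genes and few wells: Cd74 had counts in 12 of 51 and 13 of 57 Malat1-poor wells. With WBRT, 1 Malat1-poor well without a partner at matched depth had 109865 CPM of MHC class II genes. Without each gene's highest well in each set, the medians were -0.32 without WBRT and 0.39 with it for Malat1-poor over Malat1-retaining wells, and 0.92 for WBRT over none in Malat1-poor wells. Lipid handling genes had a median of 0.34 for WBRT over none in Malat1-poor wells, and of 0.23 in Malat1-retaining wells. In Malat1-poor wells 6 of 13 were past the fold higher and 1 lower, against 18.7% and 24.4% of all genes. Of these 13, 9 were positive. Without the wells that stood apart, 7 of 13 were, and the median was 0.28. On the plates of bone marrow-derived macrophages, Malat1-poor wells by the same rule had a lower median immediate early level than Malat1-retaining wells. It was 8928 against 14381 CPM without WBRT and 13368 against 16190 CPM with it. The wells of these plates were not matched on depth, and without WBRT their median depths were 2056 against 4152 counts.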
